A study of Mus musculus with 8 samples.

Results

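The genes described here are the dual-specificity MAP kinase phosphatases of mouse macrophages. They were chosen by name, as every probe of the array whose gene symbol is Dusp1, Dusp2, Dusp3, Dusp4, Dusp5, Dusp6, Dusp7, Dusp10, Dusp14 or Dusp16. Of these 10 genes, 9 were measured, by 19 of the 25697 probes of the array, which together carry 18138 gene symbols. No probe of the file carries the symbol Dusp5, a nuclear phosphatase selective for ERK, so its expression was not analysed here. A probe was tested where at least 2 of the 8 arrays detected it, with a detection p-value under 0.05, which 18 of the 19 probes and 13868 of all probes did. The exception was the Dusp6 probe that starts at base 1005 of its transcript, which no array detected. Probes of one gene are told apart by that starting base. They share the same RNA and are not replicates of each other.

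MAP kinases (ERK, p38 and JNK) carry signals from Toll-like receptors and cytokine receptors to transcription factors. They are switched on by phosphorylation of a threonine and a tyrosine in their activation loop, and dual-specificity phosphatases remove both phosphates. Many of these phosphatases are themselves induced by the pathway, so that they act as feedback brakes. Dusp1, Dusp2 and Dusp4 are inducible nuclear enzymes, Dusp6 and Dusp7 are cytoplasmic enzymes selective for ERK, and Dusp10 and Dusp16 prefer p38 and JNK. Dusp3 and Dusp14 are small atypical members that lack the kinase-binding domain of the others. In macrophages Dusp1 is best known for limiting cytokine production after LPS.

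RNA came from bone marrow-derived macrophages (BMDMs) of female mice aged 8 weeks and labelled with the strain C57bl/6J, either wild type (WT) or iNOS-/-, which lack the inducible nitric oxide synthase encoded by Nos2. All cells were grown for 7 days with GM-CSF at 10 ng/ml. They were then left unstimulated or given LPS at 200 ng/ml and IFN-γ at 10 ng/ml for 6 h, which is called M1 activation. There were 4 groups of 2 Illumina bead arrays, and the comparisons ask how the genotype alters M1 activation. Nothing in the labels tells whether 2 mice or 1 gave the arrays of a group, so p-values measure the spread between these arrays, which may be technical. The labels describe neither the iNOS-/- allele nor any littermate relation of the WT mice. GM-CSF cultures can hold dendritic cells and granulocytes beside macrophages, and in such bulk RNA fewer cells of a type and less RNA per cell cannot be told apart.

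The 8 arrays detected like numbers of probes, between 11833 and 12673, and the arrays of a group differed by a median of 0.161 to 0.187 on the log2 scale. Mean intensity before scaling was 167 and 155 on the WT M1 arrays and 208 to 224 on the others. Probes of steady rank, which set the scaling, numbered 4773 and 4821 on the iNOS-/- M1 arrays and 6089 to 7680 on the others. Nos2 itself was not detected on either array of both unstimulated groups. Its log2 normalised intensity was 7.47 and 7.05 on the WT M1 arrays and 7.49 and 7.67 on the M1 arrays labelled iNOS-/-. The Nos2 probe starts at base 3546 of its transcript, and the sources used here do not say whether the deleted part holds it, so it does not check the labels. The genotype is therefore given throughout as the labels state it.

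Among markers of cell types, 11 of 12 macrophage markers on the array were detected on both arrays of every group, all but Msr1. Their summed normalised intensity ranged over 57556 to 57958 in WT unstimulated, 65817 to 67944 in WT M1, 47355 to 49084 in iNOS-/- unstimulated and 66552 to 68325 in iNOS-/- M1 arrays. The brightest in every group were the lysozyme entries Lyz, Lyz2 and Lyzs, with log2 group means between 12.90 and 14.45. Cd68 had 12.20, 11.19, 10.64 and 10.27 and Csf1r 11.75, 11.43, 11.36 and 10.14 in the same order of groups. Between M1 groups 3 of 11 tested were called higher in iNOS-/- and 5 lower (limma adjusted p under 0.05), beside 48.2% of all probes. The summed normalised intensity of 11 dendritic cell markers ranged over 956 to 974 in WT unstimulated, 16698 to 17320 in WT M1, 14007 to 14894 in iNOS-/- unstimulated and 36983 to 38757 in iNOS-/- M1 arrays, and Flt3 was undetected in all 4 groups. Ccl17 and Il4i1 were the brightest of them in iNOS-/- M1 cells, with log2 group means of 14.24 and 13.75. Between M1 groups 4 of 9 tested were called higher in iNOS-/- and 1 lower (limma adjusted p under 0.05), beside 48.2% of all probes. Cd209a read 4.97 in WT M1 and 5.29 in iNOS-/- unstimulated cells and was undetected in iNOS-/- M1 cells. Itgax had 7.58, 7.98, 7.98 and 7.54 in the same order of groups. For 9 granulocyte markers the sums ranged over 1178 to 1209, 1524 to 1631, 1774 to 1848 and 3931 to 4064 in the same order. For 10 markers of dividing cells they ranged over 679 to 766, 2098 to 2234, 2490 to 2512 and 833 to 836. Of 9 lymphocyte and mast cell markers, 1 was detected on both arrays in each group, Cd3e, Cd3d, Cd3g, Ms4a1 and Tpsab1 were undetected in every group, and the sums ranged over 18.9 to 20.7, 38.7 to 45.1, 103 to 124 and 131 to 133. The part of these markers in the results below was not tested.

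On M1 activation 10 phosphatase probes were called in WT and 16 in the cells labelled iNOS-/-. In WT cells 10 of 18 probes were called at an adjusted p under 0.05 in limma, 8 higher and 2 lower, where 35.1% of all probes tested were called, 20.8% higher and 14.3% lower. The count in WT fell to 5 without the second WT unstimulated array and to 6 without the first WT M1 array. Calls over all probes also fell in those fits. One of the 8 higher probes, the Dusp16 probe at 2249, was undetected in both groups, and its call was lost in 8 of 15 alternative settings. In cells labelled iNOS-/- 16 of 18 were called, 13 higher and 3 lower, against 50.3% of all probes, 25.2% higher and 25.1% lower. The median log2 change of the 18 probes was 0.58 in WT and 1.72 in iNOS-/-, while that of all probes tested was 0.09 and 0.00. The test of the difference in response called 11 of 18 probes, 8 with the higher signed change in iNOS-/- and 3 with the higher signed change in WT, beside 42% of all probes. Of those calls over all probes 46.1% were higher, and 59.7% where the scaling line had an intercept. The share of higher calls among all calls in WT was 59.3%, 47.4% with quantile normalization, 44.4% with neqc, another background and quantile method, and 49.0% with the intercept.

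**Figure D1:**
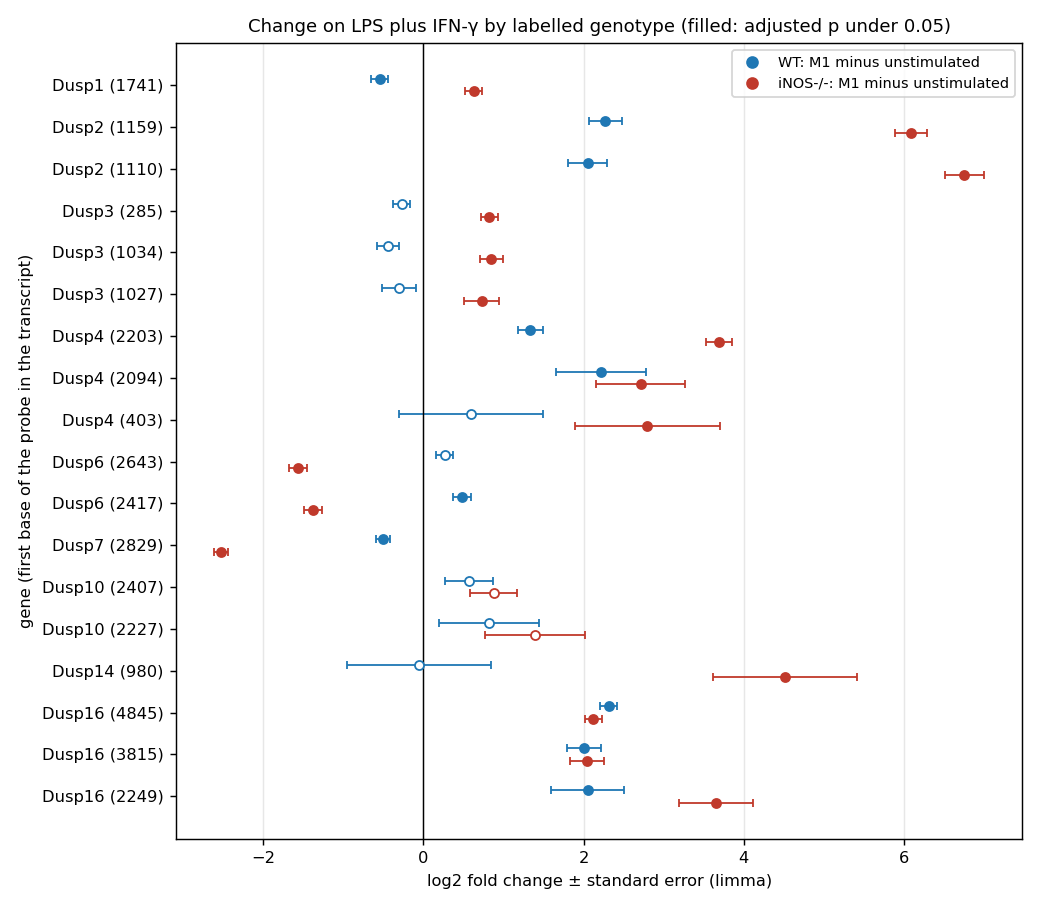
Change of every tested phosphatase probe on LPS plus IFN-γ, as log2 fold change with its standard error from limma, in WT (blue) and in cells labelled iNOS-/- (red), with filled points called at an adjusted p under 0.05. Dusp2, Dusp4 and Dusp14 lie farther to the right in red, Dusp6 and Dusp7 farther to the left, and the 2 brighter Dusp16 probes nearly coincide.

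The promoters shown are those of Dusp1, Dusp2 and Dusp16, called higher in iNOS-/- M1 than in WT M1 cells, and of Dusp6 and Dusp7, called lower there. They are the 250 bases before the start site in RefSeq (GRCm38.p6), read 5′ to 3′ along the gene, at chr17:26508473-26508722 (minus strand), chr2:127335909-127336158 (plus), chr6:134792629-134792878 (minus), chr10:99262981-99263230 (plus) and chr9:106368382-106368631 (plus). Capitals mark a cyclic AMP response element (CRE, TGACGTCA) and GC boxes (GGGCGG or, on the other strand, CCGCCC), overlapping copies running together, and Dusp6 and Dusp7 have neither in this stretch. Dusp14, also called higher in iNOS-/- M1 cells, has a GC box in this stretch and is not shown. Dusp3 and Dusp10, not called between the M1 groups, have GC boxes there too and are not shown. The sequences shown therefore cannot tell whether a motif goes with the direction of a call. The set of RefSeq promoters used here held 9 of the 10 genes, all but Dusp4.
Dusp1: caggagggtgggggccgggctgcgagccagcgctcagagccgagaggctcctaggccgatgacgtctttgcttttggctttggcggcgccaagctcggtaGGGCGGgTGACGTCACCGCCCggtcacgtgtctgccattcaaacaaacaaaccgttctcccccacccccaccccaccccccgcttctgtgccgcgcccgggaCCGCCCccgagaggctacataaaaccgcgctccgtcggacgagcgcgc
Dusp2: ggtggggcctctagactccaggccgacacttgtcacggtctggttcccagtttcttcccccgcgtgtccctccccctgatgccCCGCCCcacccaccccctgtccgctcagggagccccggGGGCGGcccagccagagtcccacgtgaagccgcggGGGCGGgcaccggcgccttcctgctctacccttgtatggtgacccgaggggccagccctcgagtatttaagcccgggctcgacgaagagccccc
Dusp16: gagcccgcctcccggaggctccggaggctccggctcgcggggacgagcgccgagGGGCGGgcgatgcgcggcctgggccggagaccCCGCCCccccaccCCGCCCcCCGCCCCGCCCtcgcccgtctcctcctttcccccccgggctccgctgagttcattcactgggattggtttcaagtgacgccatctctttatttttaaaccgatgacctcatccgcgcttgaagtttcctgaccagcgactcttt
Dusp6: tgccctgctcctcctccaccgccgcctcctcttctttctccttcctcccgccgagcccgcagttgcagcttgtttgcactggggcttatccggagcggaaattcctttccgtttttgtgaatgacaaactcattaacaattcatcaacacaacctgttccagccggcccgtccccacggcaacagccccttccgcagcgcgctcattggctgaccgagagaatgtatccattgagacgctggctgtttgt
Dusp7: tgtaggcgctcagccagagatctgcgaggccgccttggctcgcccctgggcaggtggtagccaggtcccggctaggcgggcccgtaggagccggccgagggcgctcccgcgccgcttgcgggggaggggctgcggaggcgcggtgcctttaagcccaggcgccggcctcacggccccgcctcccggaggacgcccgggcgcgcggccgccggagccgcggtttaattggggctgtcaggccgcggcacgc

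Dusp1 alone of the 9 promoters, each read on both strands from 250 bases before to 50 after the start, held the full CRE, 143 bases before its start, and 1.79% of 32851 mouse promoters held one. The shorter CRE half-site TGACG, which the full CRE includes, was in 4 of the 9 (Dusp1, Dusp2, Dusp5 and Dusp16), beside 20.8% of all promoters. GC boxes were in 8 of the 9, all but Dusp6, beside 35.7% of all, and this motif was added after the sequences had been seen. In Dusp7 the GC box lay 14 bases after the start, outside the stretch shown. Dusp5 had 2 CArG boxes, the binding site of serum response factor (1.63% of all promoters), and Dusp14 had a GAS motif, TTCNNNGAA (8.3%). An AP-1 site (TGANTCA), an NF-kB site, an ETS site (CCGGAAGT) and a TATA box (TATAAA) were in none of the 9, beside 7.81%, 4.51%, 3.89% and 13.6% of all promoters. A match describes the letters and does not show binding, and the lack of one says only that these letters are not in this window.

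Among the inducible nuclear phosphatases, Dusp2 had the widest range of group means of all member probes detected on 8 arrays. Its brighter probe, at 1159, had log2 normalised intensities of 4.60 and 4.70 in WT unstimulated, 6.83 and 7.02 in WT M1, 3.53 and 4.09 in iNOS-/- unstimulated, and 9.85 and 9.94 in iNOS-/- M1 arrays. No group overlapped another, and the M1 arrays labelled iNOS-/- stood far above the rest. On activation Dusp2 rose 4.83-fold in WT (log2 fold change 2.27 ± 0.20, SE, limma adjusted p = 0.00117) and 67.9-fold in iNOS-/- (6.09 ± 0.20, limma adjusted p = 3.4e-05). It was 7.82-fold higher in iNOS-/- M1 than in WT M1 cells (2.97 ± 0.20, limma adjusted p = 0.000366). Before stimulation it was 1.80-fold lower in iNOS-/- (-0.85 ± 0.20, limma adjusted p = 0.028), a call lost in 5 of 17 alternative settings, 3 of which left out either WT unstimulated array or the first iNOS-/- unstimulated array.

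The second Dusp2 probe, at 1110, overlaps the first by 1 base and followed it over the 8 arrays (r = 0.97). It read 3.82 and 3.82, 5.92 and 5.82, 2.04 and 1.29, and 8.39 and 8.44 in the same order of groups. It was undetected on both unstimulated arrays labelled iNOS-/-, so that its rise there has only a lower bound. The bound sets the M1 mean against whichever was higher on each dim array, the value of this probe or that of the dimmest detected probe. In the main scaling it came to at least 68.4-fold. The p-value beside a bound, here and below, is that of the fitted change (limma adjusted p = 4.39e-05 here). Such bounds hold for the main scaling only, and the fitted log2 change ranged over 4.02 to 7.13 in the alternative settings. Before stimulation this probe was at least 2.82-fold lower in iNOS-/- than in WT (limma adjusted p = 0.00269), with fitted log2 values of -2.53 to -0.60 in the alternative settings.

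Dusp1 moved in opposite directions in the labelled genotypes, by less than Dusp2. It had values of 10.87 and 10.95 in WT unstimulated, 10.32 and 10.42 in WT M1, 10.34 and 10.54 in iNOS-/- unstimulated, and 11.07 and 11.07 in iNOS-/- M1 arrays. WT M1 and iNOS-/- unstimulated arrays overlapped and lay below both other groups. Dusp1 fell by 0.55 ± 0.10 on the log2 scale in WT on activation (limma adjusted p = 0.0133) and rose by 0.63 ± 0.10 in iNOS-/- (limma adjusted p = 0.00515). The difference in response was 1.17 ± 0.15 (limma adjusted p = 0.00299), and it stayed called in all 16 alternative settings. The M1 groups differed by 0.70 ± 0.10 (limma adjusted p = 0.0039), and by 0.28 with quantile normalization, where the call was lost (limma adjusted p = 0.0655). The rise within iNOS-/- came to 0.10 with quantile normalization and lost its call there and with neqc. Before scaling, Dusp1 intensities in iNOS-/- overlapped, at 1515 and 1835 on the unstimulated and 1952 and 1786 on the M1 arrays. Before stimulation Dusp1 was lower in iNOS-/- by -0.47 ± 0.10 (limma adjusted p = 0.0225), a call lost in 5 of 17 settings. The fall in WT lost its call without the second WT unstimulated array and without the first WT M1 array.

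Dusp4, which acts on ERK, JNK and p38, rose in both genotypes and more so in iNOS-/-. Its brightest probe, at 2203, read 4.35 and 3.97 in WT unstimulated, 5.60 and 5.38 in WT M1, 4.13 and 4.02 in iNOS-/- unstimulated, and 7.79 and 7.74 in iNOS-/- M1 arrays. The unstimulated groups overlapped, and their difference was -0.08 (95% interval -0.48 to 0.32, limma adjusted p = 0.741). The rise was 2.52-fold in WT (1.33 ± 0.16, limma adjusted p = 0.00305) and 12.9-fold in iNOS-/- (3.69 ± 0.16, limma adjusted p = 6.34e-05). The M1 groups differed 4.84-fold (2.27 ± 0.16, limma adjusted p = 0.000399). Of the dimmer probes, the one at 2094 was undetected in WT unstimulated cells and rose at least 2.97-fold in WT (limma adjusted p = 0.0318), a call lost in 7 of 16 alternative settings. The one at 403 was detected only on the iNOS-/- M1 arrays, and its rise of at least 2.03-fold there just passed the threshold (limma adjusted p = 0.0494) and lost its call in 9 of 15 settings. Neither dim probe was called between the M1 groups (limma adjusted p = 0.115 and 0.228). The difference was 1.29 for the first (95% interval -0.13 to 2.70) and a fitted 1.49 for the second (95% interval -0.78 to 3.77).

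**Figure D2:**
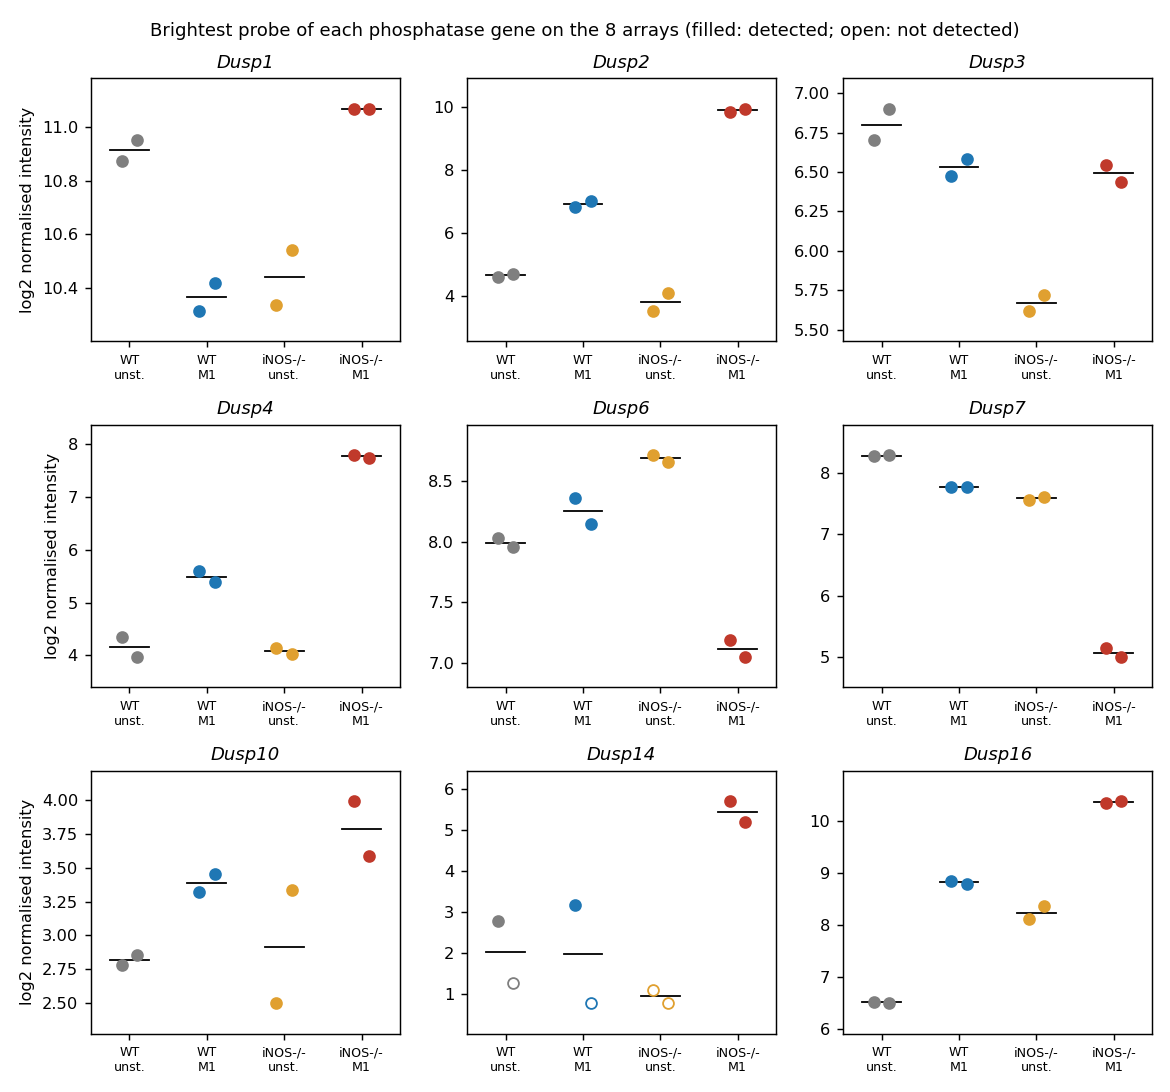
Log2 normalised intensity of the brightest probe of each phosphatase gene on the 8 arrays, with a line at each group's mean, filled points for detected and open points for undetected values, and a vertical scale of its own for each gene. The iNOS-/- M1 arrays are highest for Dusp2, Dusp4 and Dusp16 and lowest for Dusp6 and Dusp7.

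The cytoplasmic phosphatases selective for ERK both fell on activation in cells labelled iNOS-/-. Dusp7 read 8.27 and 8.30 in WT unstimulated, 7.78 and 7.77 in WT M1, 7.57 and 7.62 in iNOS-/- unstimulated, and 5.14 and 4.998 in iNOS-/- M1 arrays. Its groups did not overlap, and both iNOS-/- M1 arrays lay lowest. Dusp7 was 6.51-fold lower in iNOS-/- M1 than in WT M1 cells (log2 fold change -2.70 ± 0.09, limma adjusted p = 0.00011), which was called in all 17 alternative settings. It fell by 0.51 ± 0.09 in WT on activation (limma adjusted p = 0.00944; 0.0504 without the second WT unstimulated array) and by 2.52 ± 0.09 in iNOS-/- (limma adjusted p = 4.03e-05). Before stimulation it was already 1.62-fold lower in iNOS-/- (-0.69 ± 0.09, limma adjusted p = 0.00378).

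Dusp6, an ERK phosphatase whose own transcription follows ERK activity, had 2 tested probes. That at 2643 was highest in unstimulated cells labelled iNOS-/- and read 8.03 and 7.96 in WT unstimulated, 8.36 and 8.15 in WT M1, 8.72 and 8.66 in iNOS-/- unstimulated, and 7.19 and 7.05 in iNOS-/- M1 arrays. The last group lay below all the others without overlap. On activation Dusp6 changed by 0.26 in WT (95% interval -0.02 to 0.54, limma adjusted p = 0.126) and fell by 1.57 ± 0.11 in iNOS-/- (limma adjusted p = 0.000265). The difference in response was -1.83 ± 0.16 (limma adjusted p = 0.00102). Dusp6 was 2.20-fold lower in iNOS-/- M1 than in WT M1 cells (limma adjusted p = 0.00096) and 1.62-fold higher in iNOS-/- before stimulation (limma adjusted p = 0.00794).

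The Dusp6 probe at 2417 followed that at 2643 over the 8 arrays (r = 0.94), with 5.54 and 5.42, 5.98 and 5.95, 5.95 and 5.95, and 4.44 and 4.68 in the same order. It was called higher in WT M1 than in WT unstimulated cells (0.48 ± 0.11, limma adjusted p = 0.0245), and that call was lost in 8 of 17 alternative settings, with adjusted p-values from 0.00849 to 0.11. Before stimulation it was higher in iNOS-/- by 0.46 ± 0.11 (limma adjusted p = 0.029), a call lost in 9 of 17 settings. Dusp1 and this Dusp6 probe were the 2 of 18 member probes called in opposite directions on activation in the genotypes, against 7.9% of all probes. Another 8 were called in the same direction in both, against 15.5%.

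Of the phosphatases that prefer p38 and JNK, Dusp16 was higher in cells labelled iNOS-/- both before and after stimulation. Its brightest probe, at 4845, read 6.53 and 6.49 in WT unstimulated, 8.85 and 8.79 in WT M1, 8.11 and 8.37 in iNOS-/- unstimulated, and 10.34 and 10.38 in iNOS-/- M1 arrays. The groups did not overlap, and unstimulated cells labelled iNOS-/- lay nearer to WT M1 than to WT unstimulated cells. The rise on activation was 4.96-fold in WT (2.31 ± 0.11, limma adjusted p = 0.000158) and 4.36-fold in iNOS-/- (2.12 ± 0.11, limma adjusted p = 0.000109). The difference in response was -0.19 (95% interval -0.58 to 0.21, limma adjusted p = 0.381). Dusp16 was 3.32-fold higher in iNOS-/- unstimulated cells (1.73 ± 0.11, limma adjusted p = 0.000465) and 2.91-fold higher in iNOS-/- M1 cells (1.54 ± 0.11, limma adjusted p = 0.000425).

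The Dusp16 probe at 3815 gave like values, with rises of 2.01 ± 0.22 and 2.04 ± 0.22 on the log2 scale and genotype differences of 1.68 ± 0.22 before and 1.72 ± 0.22 after stimulation (limma adjusted p between 0.00103 and 0.0041). These calls and those of the probe at 4845 held in all 17 alternative settings. The third probe, at 2249, was detected only on the iNOS-/- M1 arrays, at 4.07 and 4.61, at least 4.05-fold above iNOS-/- unstimulated and at least 2.95-fold above WT M1 cells (limma adjusted p = 0.00191 and 0.0112), the latter call being lost in 4 of 16 settings. Both fitted log2 values of the probe at 2249 fell as low as 0.34 in the alternative settings. The array's design marks this probe as specific to one isoform and the probe at 4845 as common to all. The order of the 4 groups in Dusp16 was that of the summed dendritic cell markers, whose part in it was not tested. Ccl17 and Il4i1 were the brightest in that sum, and Cd209a and Itgax did not share its order.

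Dusp10, the other phosphatase of this kind, was near background throughout and no comparison of it was called. Its brighter probe, at 2407, read 2.78 and 2.85 in WT unstimulated, 3.32 and 3.45 in WT M1, 2.50 and 3.33 in iNOS-/- unstimulated, and 3.99 and 3.59 in iNOS-/- M1 arrays. It was detected on all 8 arrays, the probe at 2227 on 5. The largest change of the brighter probe was 0.87 in iNOS-/- (95% interval 0.12 to 1.63, limma adjusted p = 0.0586), which passed in 4 of 16 alternative settings. Between the M1 groups it differed by 0.40 (-0.35 to 1.16, limma adjusted p = 0.315).

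The small atypical members differed from each other. Dusp3, which acts on ERK and JNK, was lowest in unstimulated cells labelled iNOS-/-. The probe at 285 read 6.70 and 6.90 in WT unstimulated, 6.48 and 6.58 in WT M1, 5.62 and 5.72 in iNOS-/- unstimulated, and 6.54 and 6.44 in iNOS-/- M1 arrays. The M1 groups overlapped, with a difference of -0.04 (95% interval -0.32 to 0.24, limma adjusted p = 0.807). Before stimulation Dusp3 was 2.19-fold lower in iNOS-/- (-1.13 ± 0.11, limma adjusted p = 0.00166). On activation it rose by 0.82 ± 0.11 in iNOS-/- (limma adjusted p = 0.00234) and changed by -0.27 in WT (95% interval -0.55 to 0.01, limma adjusted p = 0.115), a difference in response of 1.10 ± 0.16 (limma adjusted p = 0.00436). The probes at 1034 and 1027, which share 45 of their 50 bases, were also lower in iNOS-/- before stimulation, 2.42-fold and 2.58-fold (limma adjusted p = 0.00239 and 0.00778).

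Dusp14 was close to background except on the M1 arrays labelled iNOS-/-. It read 2.78 and 1.27 in WT unstimulated, 3.18 and 0.76 in WT M1, 1.10 and 0.77 in iNOS-/- unstimulated, and 5.71 and 5.20 in iNOS-/- M1 arrays. Only the first array of each WT group detected it, and no iNOS-/- unstimulated array did. Its rise in iNOS-/- was at least 8.76-fold in the main scaling (limma adjusted p = 0.00978), with fitted log2 values of 1.45 to 4.78 in the alternative settings. Against WT M1, where 1 of 2 arrays detected it, it was higher by 3.49 ± 0.90 on the log2 scale (limma adjusted p = 0.0256), a value that ranged from 1.45 to 4.69 over the alternatives and lost its call in 5 of 16, among them those without the second WT M1 array or without either iNOS-/- M1 array.

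Set against each other, the M1 groups differed in 11 of 18 phosphatase probes, 8 higher and 3 lower in iNOS-/-, where 48.2% of all probes were called, 22.9% higher and 25.3% lower. The 8 were Dusp1, Dusp14, 1 Dusp4 probe, both Dusp2 probes and all 3 Dusp16 probes, and the 3 were Dusp7 and both Dusp6 probes. The median difference of the 18 probes was 0.99 and that of all probes -0.03. Of all calls 47.5% were higher, and 58.4% where the scaling line had an intercept. The unstimulated groups also differed in 11 of 18 probes, 4 higher and 7 lower in iNOS-/-, against 32.2% of all probes, 16.7% higher and 15.4% lower. The 4 were 2 Dusp16 and 2 Dusp6 probes, and the 7 were Dusp1, Dusp7, 2 Dusp2 and 3 Dusp3 probes. Their median was -0.58 and that of all probes 0. Comparisons that share a group share its arrays, so their values are not independent of each other.

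**Figure D3:**
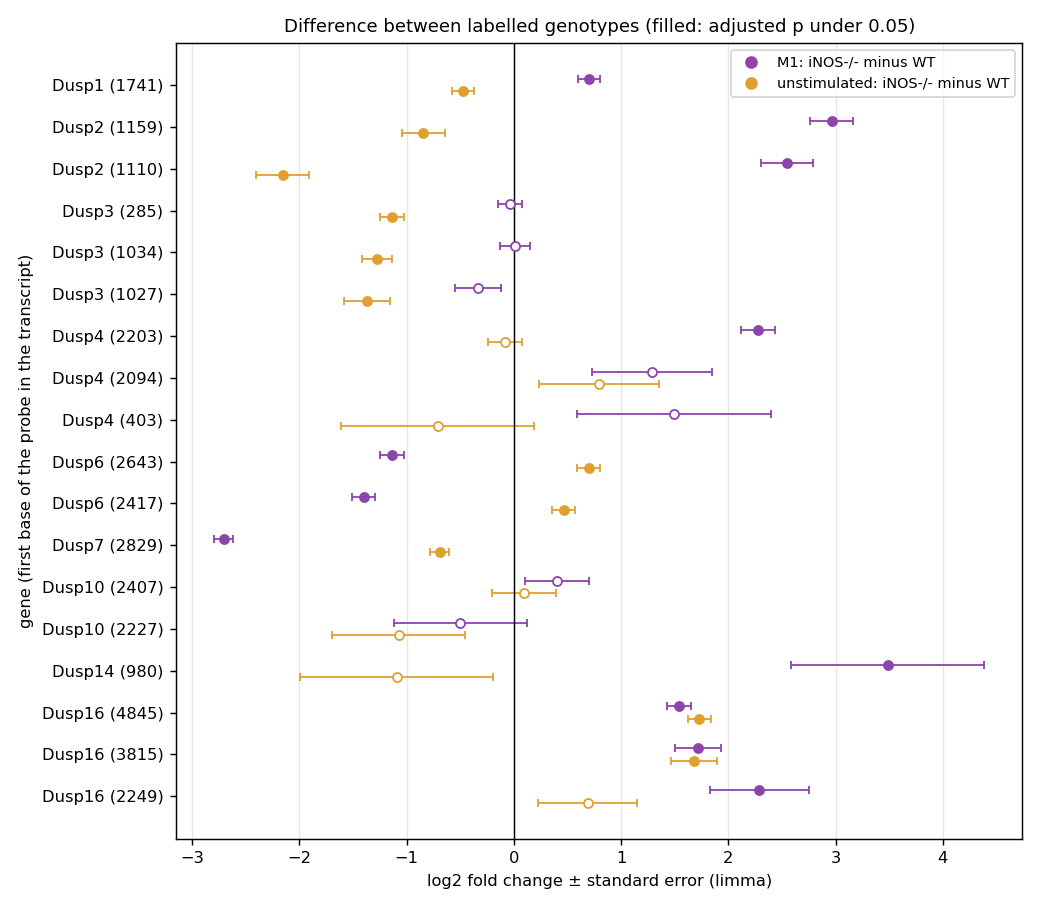
Difference between the labelled genotypes, iNOS-/- minus WT, for every tested phosphatase probe, as log2 fold change with its standard error from limma, among M1 arrays (purple) and unstimulated arrays (yellow), with filled points called at an adjusted p under 0.05. Dusp1, Dusp2 and Dusp6 lie on opposite sides of 0 in the 2 comparisons, Dusp7 is lower in both and the brighter Dusp16 probes are higher in both.

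**Figure D4:**
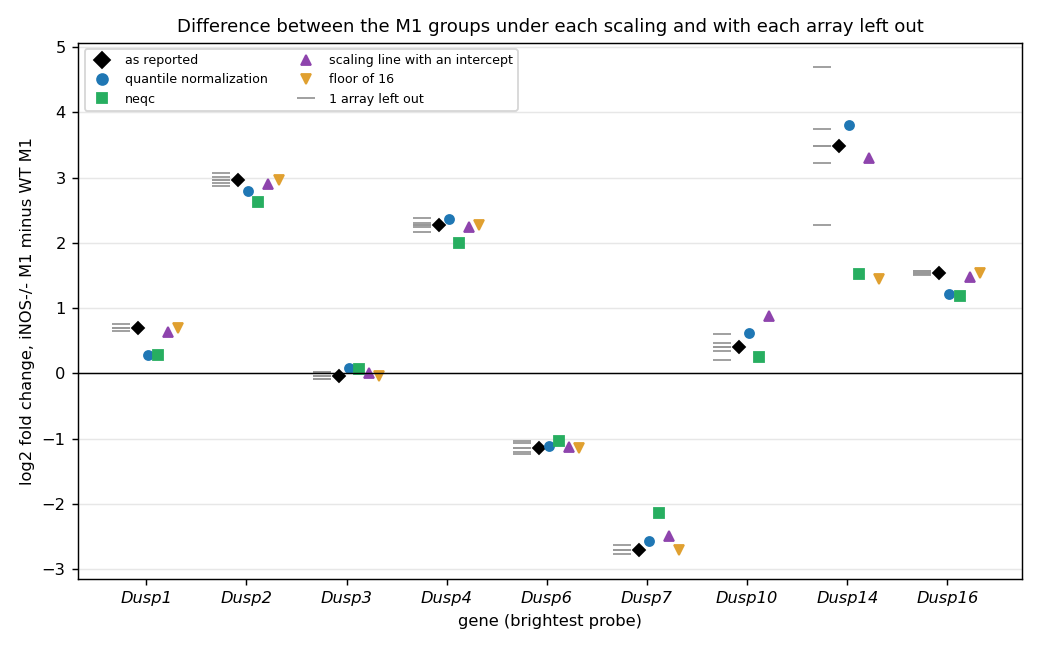
Difference between the M1 groups, iNOS-/- minus WT on the log2 scale, of the brightest probe of each gene as reported, under 4 other ways of scaling or setting a floor, and with each array left out. Dusp2, Dusp4, Dusp16, Dusp6 and Dusp7 keep their side of 0 throughout, Dusp1 shrinks from 0.70 to 0.28 with quantile normalization, and Dusp14 spreads widest; a floor of 16 gives Dusp10 no value.

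The rest of the MAP kinase pathway was followed through 96 listed genes, of which 84 were on the array and 71 were tested, each by its brightest probe. Between the M1 groups 15 were higher and 23 lower in iNOS-/-, with a median of -0.27. That is 53.5% called, near the 48.2% of all probes (22.9% higher and 25.3% lower, median -0.03). Of 8 MAP kinases, Mapk14 (p38α) was lower by 2.08 ± 0.08 and Mapk3 (ERK1) by 0.94 ± 0.14, and none was higher (limma adjusted p = 0.00012 and 0.00355). Mapk14 had group means of 8.97 in WT unstimulated, 9.37 in WT M1, 9.45 in iNOS-/- unstimulated and 7.29 in iNOS-/- M1 cells. It was thus lowest in the last group, and WT unstimulated cells lay below both WT M1 (by 0.41 ± 0.08, limma adjusted p = 0.0121) and iNOS-/- unstimulated cells (by 0.48 ± 0.08, limma adjusted p = 0.00756). The call against WT M1 held in 13 of 17 alternative settings and that against iNOS-/- unstimulated cells in all 17. Of 7 MAP kinase kinases, the ERK activator Map2k1 (1.68 ± 0.30) and Map2k4 (0.35 ± 0.08) were higher and Map2k5 lower (-1.24 ± 0.12). Of 10 MAP3 kinases, Map3k14 (1.44 ± 0.11), Map3k7 (1.11 ± 0.14) and Map3k8 (0.96 ± 0.10), which relays LPS signals to ERK, were higher, and 3 were lower, among them Map3k3 (-0.91 ± 0.08) and Araf (-0.51 ± 0.08).

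The shorter lists are read against the same 48.2% of all probes called. Of 8 kinases activated by MAP kinases, 5 were lower in iNOS-/- M1 cells and none higher, led by Rps6ka1 (-1.59 ± 0.11) and Mknk1 (-1.05 ± 0.11). Other feedback inhibitors were called in 6 of 9 cases, 4 higher, among them Rasa2 (1.77 ± 0.16) and Spred1 (1.56 ± 0.09), which restrain Ras signalling, and 2 lower. These were Ptpn7, a tyrosine phosphatase of MAP kinases (-3.97 ± 0.98, limma adjusted p = 0.0226), which 1 of the 2 iNOS-/- M1 arrays detected and whose call was lost in 4 of 16 settings, and Ppm1d (-0.35 ± 0.11, limma adjusted p = 0.0431). Of 14 other dual-specificity phosphatases 4 were higher and 6 lower. Of 15 immediate early targets, 4 were lower, with Fos at -2.94 ± 0.11 and Egr1 at -2.86 ± 0.15, and 2 were higher, Ier3 at 0.64 ± 0.08 and Junb at 0.54 ± 0.09. Each gene named here kept its direction over the alternative settings, and Map2k4, Ier3 and Junb lost their call in 6, 2 and 2 of 17, and Ppm1d in 12 of 17.

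Before stimulation 10 of the 71 pathway genes were higher in iNOS-/- and 20 lower. That is 42.3% called beside 32.2% of all probes (16.7% higher and 15.4% lower). Of 15 immediate early targets 6 were lower and none higher. The lowest were Fosb, at -2.43 and called in 8 of 16 alternative settings, and Atf3, at -1.89 and called in all 17. On activation 14 rose and 10 fell in WT, and 17 rose and 19 fell in iNOS-/-, shares of 33.8% and 50.7% that were near the 35.1% and 50.3% of all probes. The difference in response was called for 33, 17 with the higher signed change in iNOS-/- and 16 with the higher signed change in WT, 46.5% beside 42% of all probes. Leaving out single arrays of the compared groups lowered the count in WT and that between unstimulated groups, as set out with the other alternatives. Calls over all probes fell in those fits too.

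**Figure D5:**
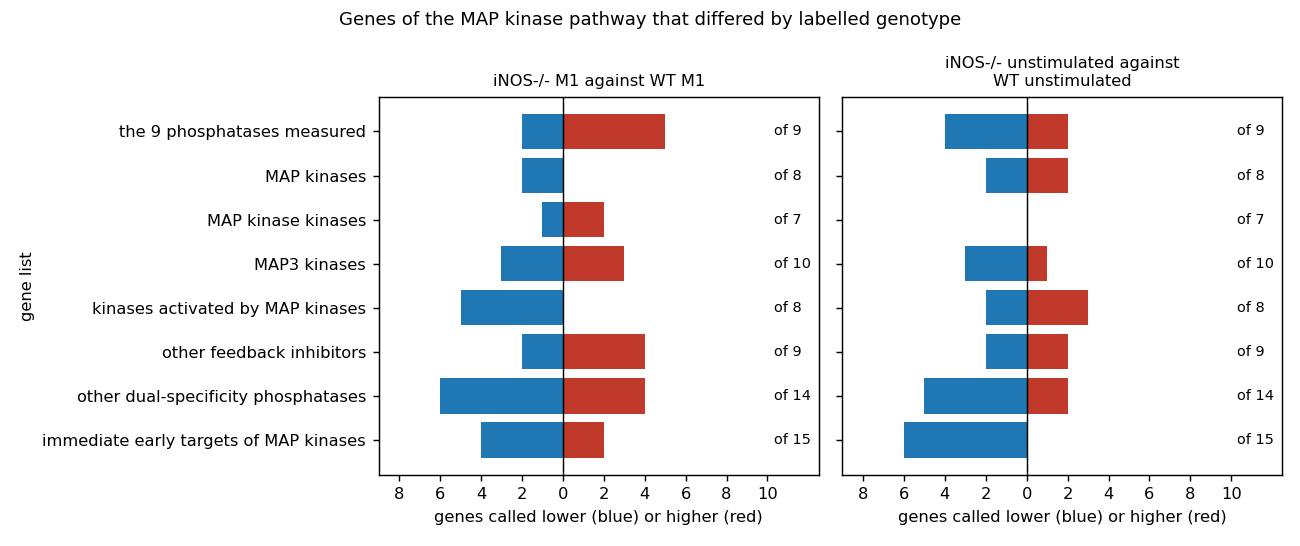
Number of genes called higher (red, to the right) or lower (blue, to the left) in iNOS-/- than in WT at an adjusted p under 0.05, for the 9 phosphatase genes by their brightest probe and for 7 other lists of the MAP kinase pathway, among M1 arrays (left) and unstimulated arrays (right), with the number tested at the end of each row. Of the 9 phosphatases 5 were higher and 2 lower among M1 arrays, and 2 were higher and 4 lower among unstimulated arrays.

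The genes whose pattern over the 8 arrays was most like that of 3 member probes, those with the widest range of group means among member probes detected on all 8 arrays, were sought among 9687 probes detected on all 8 arrays. Set aside were probes of the same gene and symbols that start with LOC, EG or Gm, end in Rik or hold only capitals and digits. For Dusp2 these were Lass6 (r = 0.999), Tnip1 (0.998) and Axud1 (0.998). For the Dusp16 probe at 4845 they were Traf1 (0.999), Slco3a1 (0.998) and Glipr2 (0.998), and for that at 3815 Net1 (0.997), Ccr7 (0.995) and Khdrbs1 (0.995). Traf1 had group means of 5.26 in WT unstimulated, 8.68 in WT M1, 7.92 in iNOS-/- unstimulated and 11.22 in iNOS-/- M1 cells. Ccr7, a chemokine receptor of migrating dendritic cells and one of the dendritic cell markers above, had 3.66, 7.92, 7.24 and 10.88 in the same order. These correlations rest on 4 groups of 2 arrays and describe the patterns only.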

How the data were processed

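RNA from 8 samples in 4 groups of 2 was measured on Illumina bead arrays, named MouseRef-8 in one place of the labels and MouseWG-8 in another. The authors deposited a mean bead intensity for every probe on every array, with a detection p-value beside each. Their methods describe background subtraction, rank-invariant normalization, 1 in place of negative values, log2 values and limma with Benjamini-Hochberg adjustment, and the submitters' processing notes name GenomeStudio and limma 3.14.4. The file header names no normalization and no background subtraction, but between 25.2% and 27.2% of intensities per array lie below 0, so nothing more was subtracted. No value column lacked a sample (0 columns).

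For scaling, every array was set against the mean of the 8 by a robust line through the origin (MASS 7.3-60.0.1) over probes whose rank differed by less than 0.05 of it, between 0.5 and 0.9 of the ranks. The factors were 0.813 to 0.892 on the unstimulated arrays and 1.10 to 1.30 on the M1 arrays. Scaling thus raised every M1 array relative to the unstimulated ones. Values under 1 were set to 1 and log2 was taken. Probes detected at p under 0.05 on at least 2 arrays were fitted with a one-way model of the 4 groups on all 8 arrays (lmFit and eBayes, limma 3.58.1, R 4.3.3), and p-values, 2-sided, were adjusted over 13868 probes. The number of arrays, and for dim probes the signal over background, limit the precision. Intervals are 95%. The members, the pathway and marker lists and the tests were chosen with earlier results of these data known. Named genes are every member probe, Nos2, called MAP kinases, MAP kinase kinases and MAP3 kinases, at most the 2 highest and 2 lowest called genes of each other list, and the 3 probes most like each of 3 member probes. The procedure was tested on simulated data. The alternatives were quantile normalization, neqc, a scaling line with an intercept, a floor of 16, no or a stricter detection filter, the arrays of the compared groups alone, the replicate number as a block, an intensity trend and each array left out. Probes carry the gene symbols of the file, which can be old, and no genome position is given for probes, since their build is not given in the sources used here. Promoters came from a RefSeq table. Some genes of the lists are not reported here by name.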

Additional observations from a re-analysis of the deposited data

Results flagged for a closer look

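The test of the difference in response between the labelled genotypes (iNOS-/- minus WT, log2 scale, limma) singled out 11 phosphatase probes. The signed change on activation was higher in iNOS-/- for Dusp2, by 3.81 ± 0.28 (SE) at the probe at 1159 and 4.70 ± 0.34 at that at 1110, for Dusp14 by 4.58 ± 1.27, for the Dusp4 probe at 2203 by 2.36 ± 0.22, for Dusp1 by 1.17 ± 0.15, and for the 3 Dusp3 probes by 1.10 ± 0.16, 1.29 ± 0.20 and 1.03 ± 0.30. For Dusp1 this joins a fall of 0.55 in WT and a rise of 0.63 in iNOS-/-. The signed change was lower in iNOS-/- for Dusp7, by -2.01 ± 0.12, and for the Dusp6 probes, by -1.83 ± 0.16 and -1.86 ± 0.16. Dusp7 fell in both genotypes and further in iNOS-/-, and both Dusp6 probes fell in iNOS-/- only. Adjusted p-values in limma lay between 0.00046 and 0.0437. The values of Dusp14 and of the second Dusp2 probe rest on a group in which no array detected them, so that they are fitted values and not measured sizes, and they ranged over 1.45 to 5.78 and 2.55 to 5.08 in the alternative settings. The calls of Dusp14 and of the Dusp3 probe at 1027 were lost in 6 and in 9 alternative settings, and the other 9 held in every setting. No group was large enough to test single arrays against their own group.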

How the results depend on the processing

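Of the calls at an adjusted p under 0.05, 5 of 10 member probes held in every setting for activation in WT, 10 of 16 in iNOS-/-, 8 of 11 between M1 groups, 8 of 11 between unstimulated groups and 9 of 11 for the difference in response. One call changed direction, Dusp16 at 2249 in WT, to -0.10 where the scaling line had an intercept. That line shifted the median of all probes from -0.03 to 0.24 between M1 groups, 0.00 to 0.20 in iNOS-/-, 0.09 to -0.10 in WT, 0 to -0.12 between unstimulated groups and -0.05 to 0.33 for the difference. Quantile normalization shifted it to -0.06 in WT and -0.13 in iNOS-/-, and neqc to -0.04 in WT. Uncalled values changed sign with the intercept for Dusp10 at 2227 between M1 groups (0.39), Dusp10 at 2407 in WT (-0.10) and between unstimulated groups (-0.30), Dusp16 at 2249 (-1.09) and Dusp4 at 2094 (-0.0266) between unstimulated groups and Dusp4 at 403 in WT (-0.85). They did so with quantile normalization for Dusp10 at 2407 between unstimulated groups (-0.00765) and Dusp3 at 285 between M1 groups (0.0863), and with neqc for the latter (0.0732) and Dusp4 at 403 in WT (-0.0277). The pathway count in WT was 37 with neqc against 24, where calls over all probes numbered 6177 against 4869.

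With 1 array left out, the lone array of its group being assumed to vary like the others, member calls numbered 5 to 11 in WT (5 without the second WT unstimulated and 6 without the first WT M1 array), 13 to 15 in iNOS-/-, 9 to 12 between M1 groups, 8 to 12 between unstimulated groups and 9 to 11 for the difference. Pathway calls numbered 11 to 24 in WT (11 without the second WT unstimulated and 13 without either WT M1 array) and 14 to 28 between unstimulated groups (14 and 15 without the second and first iNOS-/- array, 16 and 19 without the second and first WT array). In every comparison, calls over all probes also fell when an array of a compared group was left out. Uncalled values whose sign turned ranged, for the difference, over -0.38 to 1.53 (Dusp10 at 2227), -0.11 to 0.73 (Dusp10 at 2407), -0.25 to 0.33 (Dusp16 at 3815) and -0.34 to 1.33 (Dusp4 at 2094). Between unstimulated groups they ranged over -0.32 to 0.52 (Dusp10 at 2407), -1.97 to 0.55 (Dusp4 at 403), -0.28 to 0.11 (Dusp4 at 2203) and -0.0405 to 1.63 (Dusp4 at 2094). In WT they ranged over -1.27 to 1.15 (Dusp14) and -0.67 to 1.85 (Dusp4 at 403), and between M1 groups over -0.0908 to 0.0157 (Dusp3 at 285) and -0.18 to 0.20 (Dusp3 at 1034).

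Replicate numbers did not pair the arrays (correlations of same-numbered deviations from -0.0375 to 0.0247). With the replicate number as a block, member calls were 10 in WT, 15 in iNOS-/-, 11 between M1 groups, 10 between unstimulated groups and 11 for the difference, and the calls lost were Dusp4 at 403 and Dusp6 at 2417. A floor of 16 left no value where both groups lay at it. Signal over background limits the dim probes. The causes of these changes were not tested.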
